A study of Homo sapiens with 12 samples.

Results

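Interferon-stimulated genes encode the proteins with which a cell resists viruses, from sensors of foreign RNA to enzymes and membrane proteins that block viral entry and replication. Interferons reach them by binding a cell surface receptor, whose JAK kinases phosphorylate STAT proteins. STAT2 and IRF9 are subunits of the complex ISGF3, which binds the interferon-stimulated response element (ISRE) in the promoters of the genes. Many tumor cell lines keep a part of this program on without added interferon.

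The 43 genes described here were taken by name from gene tables of the human medulloblastoma cell line DAOY. The list covered the factors that drive the program, the RNA sensors and 7 families of effectors, and the rule uses no difference between lines or cultures. The list was, however, chosen with earlier results of these data known. Counts of members set beside shares of all genes are therefore descriptions and not independent support. Each of the 43 had a mean of at least 1 TPM over the 12 libraries and entered the tests, among 17621 genes tested. TPM is a transcript level scaled by gene length and by library total. A level is thus a share of its library, and comparisons between libraries also depend on the other transcripts in each. Median centering of the libraries, given among the alternatives below, shifted the members' line medians.

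The 12 libraries were 1 for each combination of 3 cell lines and 4 cultures. The lines were DAOY with NOTCH1 knocked out (NOTCH1KO), DAOY with NOTCH2 knocked out (NOTCH2KO), both made with CRISPR/Cas9, and unedited DAOY (WT), with 1 line of each genotype. The cultures were plates coated with the Notch ligand Jagged1 or with Fc as a control, and DAPT, a γ-secretase inhibitor that blocks Notch signaling, or its solvent DMSO, for 12 h. Wherever 4 values are given for a line below, the Fc plates come before the Jagged1 plates, and DMSO before DAPT on each plate. No combination was repeated, so a line difference was tested over 4 matched pairs of libraries in a model that adds a line term and a culture term. Its p-values measure how evenly a difference held over the cultures, not the variation between independently derived lines, and an effect of the knockout cannot be told apart from a property of the 1 line that carries it. Whether a knockout line is a single clone or a pool is not given in the sources used here.

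Depth was 18.3 to 22.42 M reads per library, so that 1 read per kb of transcript was worth 0.0947 to 0.117 TPM. The targeted transcripts were lower in their own lines. NOTCH1 averaged 0.565 ± 0.249 TPM in NOTCH1KO and 3.19 ± 0.337 TPM in WT cells, and NOTCH2 averaged 50.7 ± 7.95 TPM in NOTCH2KO and 80.7 ± 9.56 TPM in WT cells (SD, n = 4 each). HES1, a direct Notch target, averaged 30.8 ± 5.41 TPM with DAPT and 68.0 ± 14.5 TPM with DMSO on Jagged1 (SD, n = 3 each, adjusted p = 0.048). Of 12 blood and endothelial markers, 5 were listed at 0 in every library, PTPRC, CD3E, HBB and PECAM1 among them, while CD68, a lysosomal protein of macrophages, had 4.797 to 17.6 TPM. The summed level of the 12 was 6.53 to 19.1 TPM in NOTCH1KO and 10.98 to 13.5 TPM in NOTCH2KO cells, against 9.37 to 14.2 TPM in WT cells. Of 6 markers of plasmacytoid dendritic cells, which are specialized in making interferon, CLEC4C, LILRA4, TLR7 and TLR9 were listed at 0 in every library, and the transcription factor TCF4 had 5.91 to 41.5 TPM. Their part in the results was not tested.

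The promoters are shown first, since the members share a known control element there. RefSeq promoter windows, which run from 250 bases before to 50 bases after a start site (GRCh38.p14), were found for 34 of the 43 members. The ISRE core was searched on both strands as GAAANNGAAA. It stood in at least 1 window of 23 of the 34 members (67.6%), against 1195 of all 27305 genes with a window (4.38%). A STAT site, TTCNNNGAA, stood in windows of 11 members (32.4%), against 9.38% of all genes, and the site of the Notch partner CSL, TGGGAA, in windows of 7 members (20.6%), against 28.1%. A match is a run of letters and not a measured binding event. In the members' windows, 7 matches of the last 2 motifs overlapped an ISRE core. The ISRE core was found in 17 of 24 members that were called lower in NOTCH1KO cells and in 6 of 10 that were not called.

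The 250 bases before the start site are printed for 6 members that hold the core, 4 that differed between the lines and, for contrast, IFIT1 and IFIT5, which did not pass the test in either knockout line. Capitals mark the core in either orientation, read 5′ to 3′ on the strand of the gene. The windows are chr1:1013247-1013496, plus strand (ISG15), chr2:6877527-6877776, plus strand (RSAD2), chr10:89327747-89327996, plus strand (IFIT3), chr4:88456869-88457118, plus strand (HERC5), chr10:89392373-89392622, plus strand (IFIT1) and chr10:89414318-89414567, plus strand (IFIT5), all in GRCh38.p14.
ISG15: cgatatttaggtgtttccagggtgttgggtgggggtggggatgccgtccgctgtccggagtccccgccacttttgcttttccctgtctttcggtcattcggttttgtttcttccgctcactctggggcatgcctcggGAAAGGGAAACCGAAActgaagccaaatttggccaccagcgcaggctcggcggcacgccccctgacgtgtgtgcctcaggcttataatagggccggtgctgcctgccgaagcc
RSAD2: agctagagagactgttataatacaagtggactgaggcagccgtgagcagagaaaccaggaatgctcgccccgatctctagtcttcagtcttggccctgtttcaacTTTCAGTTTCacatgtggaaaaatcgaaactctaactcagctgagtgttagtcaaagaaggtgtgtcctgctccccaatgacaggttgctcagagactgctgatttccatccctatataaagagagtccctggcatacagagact
IFIT3: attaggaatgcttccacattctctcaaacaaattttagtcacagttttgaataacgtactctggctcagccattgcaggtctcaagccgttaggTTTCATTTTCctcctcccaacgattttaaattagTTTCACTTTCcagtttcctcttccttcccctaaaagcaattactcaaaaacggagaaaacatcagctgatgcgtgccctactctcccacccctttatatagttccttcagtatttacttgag
HERC5: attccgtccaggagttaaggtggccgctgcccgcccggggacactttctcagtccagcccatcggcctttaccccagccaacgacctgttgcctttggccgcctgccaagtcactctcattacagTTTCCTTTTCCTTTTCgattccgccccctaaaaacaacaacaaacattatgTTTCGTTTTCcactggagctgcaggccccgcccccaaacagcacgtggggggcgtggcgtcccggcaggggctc
IFIT1: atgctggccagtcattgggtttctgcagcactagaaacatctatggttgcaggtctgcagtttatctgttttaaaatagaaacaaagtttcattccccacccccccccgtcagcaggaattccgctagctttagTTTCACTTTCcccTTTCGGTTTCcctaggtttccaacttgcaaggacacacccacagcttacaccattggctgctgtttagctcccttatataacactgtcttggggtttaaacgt
IFIT5: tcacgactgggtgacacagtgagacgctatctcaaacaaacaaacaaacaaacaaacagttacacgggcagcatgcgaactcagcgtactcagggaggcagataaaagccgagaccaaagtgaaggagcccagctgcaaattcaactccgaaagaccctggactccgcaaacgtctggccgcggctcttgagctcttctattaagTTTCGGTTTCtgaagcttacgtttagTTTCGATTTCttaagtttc
ISG15 carries 2 overlapping cores that start 113 and 107 bases before the start site, and RSAD2 carries 1 core at 145 bases. IFIT1, IFIT3 and IFIT5 carry 2 cores each, those of IFIT5 within 45 bases of the start site. HERC5 carries 3, of which 2 overlap.

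The members were widely expressed without added interferon. Their summed level was 1224 to 1403 TPM in the 4 NOTCH1KO libraries and 1699 to 1903 TPM in the 4 NOTCH2KO libraries, against 2032 to 2342 TPM in the 4 WT libraries, and the 3 ranges did not overlap. Mean levels over the 12 libraries ran from 1.79 TPM for EPSTI1 to 360.3 TPM for IFI44, with 33 members at 10 TPM or more and 4 at 100 TPM or more, namely IFI44, IFITM3, OASL and ISG15. For 38 of the 43 members the lowest of the 12 libraries was a NOTCH1KO library. The Fc DAPT library of NOTCH1KO was the lowest for 17 members. Neither count was taken over all genes, so how far they are particular to the members is not known.

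**Figure D1:**
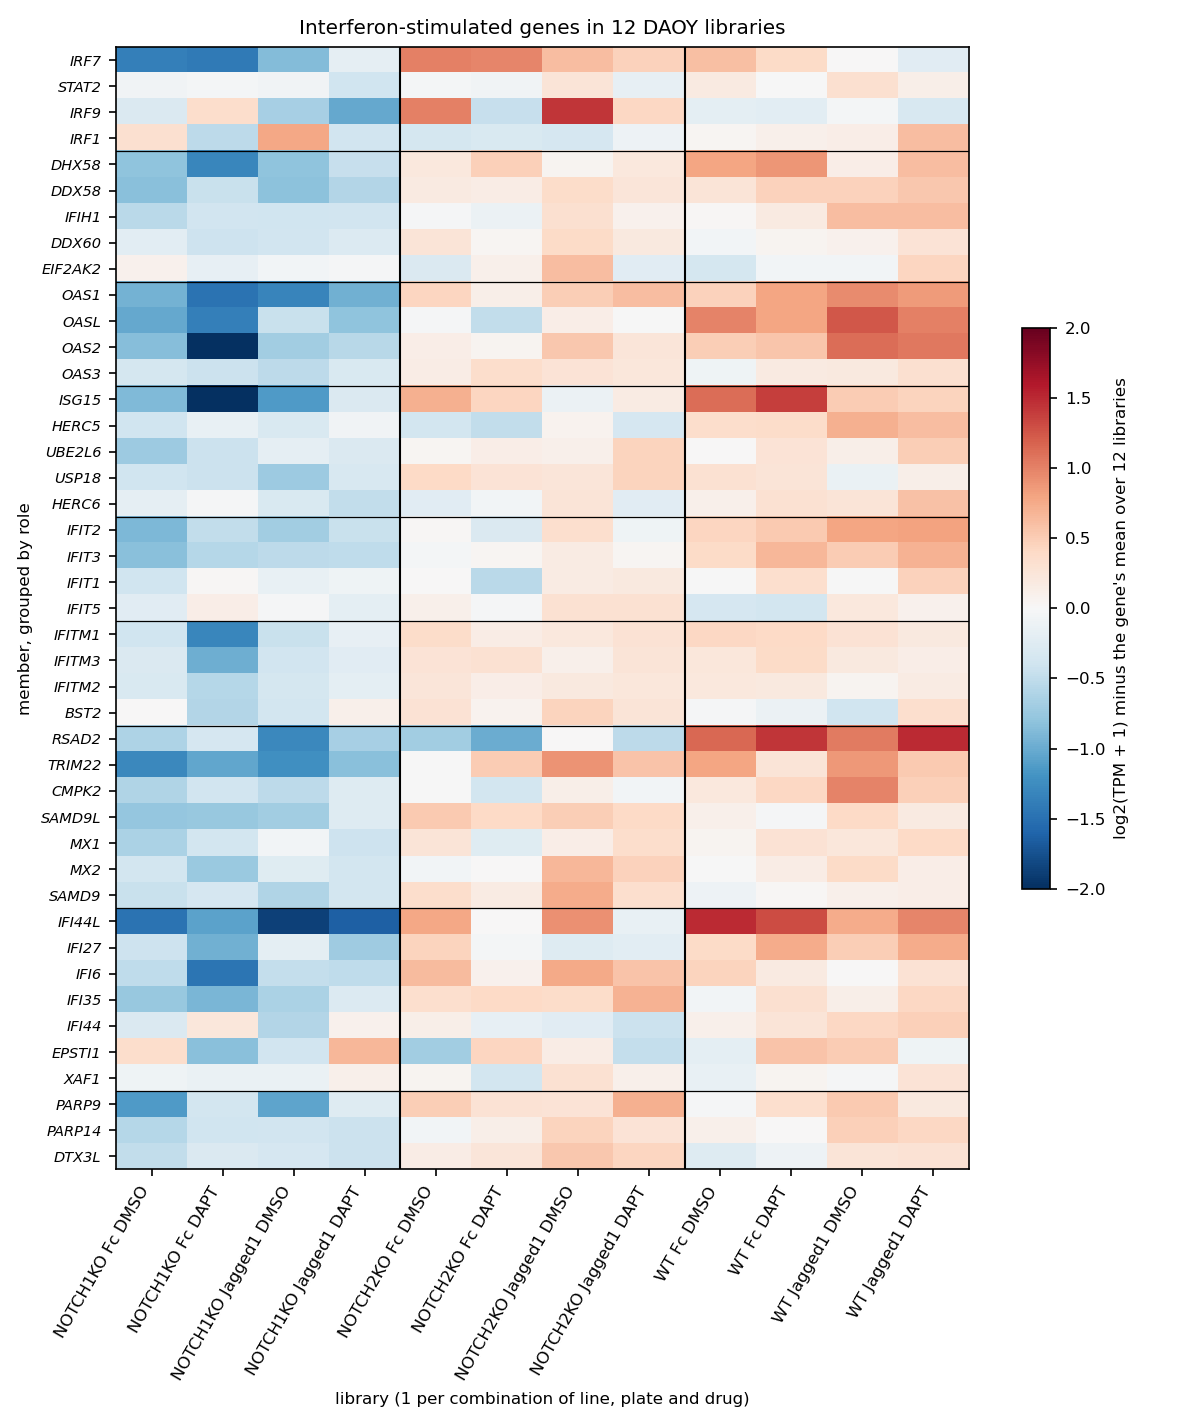
Heat map of the 43 members (rows, grouped by role) in the 12 libraries (columns, NOTCH1KO, NOTCH2KO and WT from left to right). Color gives log2(TPM + 1) minus the mean of the gene over the 12 libraries, and the scale ends at 2 in each direction; the 4 NOTCH1KO columns are the lowest block for most members, and RSAD2 is low in both knockout lines.

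NOTCH1KO cells held less RNA of most interferon-stimulated genes than WT cells. Of the 43 members, 33 were called lower and 0 higher at an adjusted p below 0.05 (limma on log2(TPM + 1), Benjamini-Hochberg over 17621 genes), and 10 did not pass. Over all genes tested, 12.8% were called lower and 10.7% higher in this comparison. The median log2 difference of the members was -0.71, against 0.00 over all genes, whose quartiles were -0.29 and 0.25. Of the members, 13 differed by at least 2-fold, and the share of all genes at that size was not counted. The members' median was nearly the same in every culture, at -0.69 and -0.73 on Fc (DMSO, DAPT) and -0.73 and -0.71 on Jagged1 (DMSO, DAPT). In bulk RNA, fewer expressing cells and less RNA per cell cannot be told apart. For 33 members all 4 NOTCH1KO libraries lay below all 4 WT libraries, as they did for 12.5% of all genes tested.

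NOTCH2KO cells differed from WT in far fewer members. Of the 43, 6 were called lower and 0 higher, while 7.35% of all genes tested were called lower and 12.0% higher. The members' median log2 difference was -0.12, against 0.06 over all genes, and 7 members had every NOTCH2KO library below every WT library, as had 9.78% of all genes. The 6 were RSAD2, OASL, HERC5, IFIT2, CMPK2 and IFIT3. Set against each other, 29 members were called higher and 0 lower in NOTCH2KO than in NOTCH1KO cells (19.8% and 11.9% of all genes), with a median log2 difference of 0.65 against 0.07 over all genes. The 3 line comparisons share libraries, so their values are given side by side and not as separate support.

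**Figure D2:**
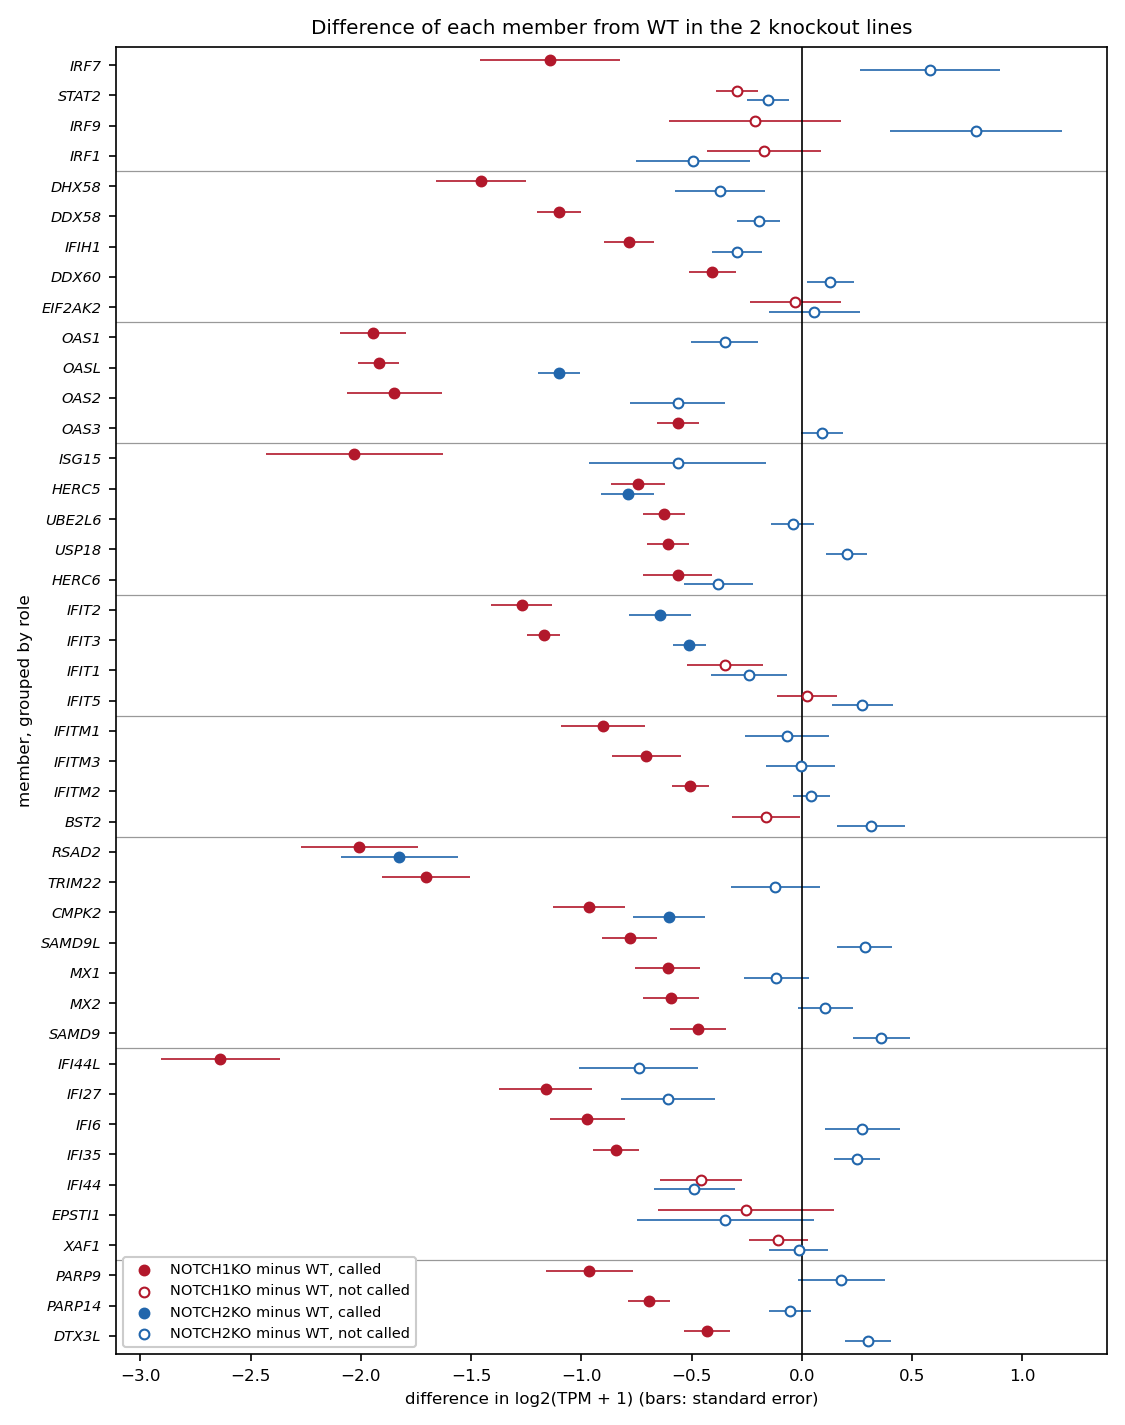
Difference of each member from WT in log2(TPM + 1) (x axis; bars give the standard error), NOTCH1KO above NOTCH2KO for every member, members grouped by role; filled points passed the test. NOTCH1KO points run from -2.64 for IFI44L to 0.02 for IFIT5, and NOTCH2KO points from -1.83 for RSAD2 to 0.79 for IRF9.

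Of the 4 transcription factors, only IRF7 passed the test in NOTCH1KO cells. IRF7, the factor through which interferon production feeds itself, had 1.604, 1.51, 2.69 and 4.93 TPM in NOTCH1KO cells and 12.5, 12.2, 9.26 and 8.197 TPM in NOTCH2KO cells, against 9.11, 7.76, 5.697 and 4.69 TPM in WT cells. Its level was lower in NOTCH1KO than in WT cells (log2 difference -1.14 ± 0.32, adjusted p = 0.033), although 1 of the 4 pairs went the other way, and it was higher in NOTCH2KO than in NOTCH1KO cells (1.72 ± 0.32, adjusted p = 0.0045). The call against WT was lost without any 1 NOTCH1KO or WT library other than those on Jagged1 with DAPT, at log2 differences of -1.23 to -0.90.

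STAT2, a subunit of ISGF3, had 40.1, 40.7, 40.2 and 31.6 TPM in NOTCH1KO cells and 40.8, 40.2, 50.4 and 37.4 TPM in NOTCH2KO cells, against 47.6, 41.7, 52.8 and 45.7 TPM in WT cells. All 4 NOTCH1KO values lay below the WT values, by -0.29 ± 0.0938 on the log2 scale, and the adjusted p was 0.053.

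IRF9, the DNA-binding subunit of ISGF3, had 12.1, 19.4, 9.11 and 6.88 TPM in NOTCH1KO cells and 31.1, 10.6, 42.1 and 20.3 TPM in NOTCH2KO cells, against 12.9, 12.8, 14.5 and 11.9 TPM in WT cells. The WT values lay close together, whereas the NOTCH2KO values spanned both sides of them. The log2 difference was 0.79 ± 0.39, adjusted p = 0.20 in NOTCH2KO and -0.21 ± 0.39, adjusted p = 0.73 in NOTCH1KO cells.

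IRF1, which is also induced by interferon gamma and by NF-κB, had 72.1, 39.7, 99.3 and 43.9 TPM in NOTCH1KO cells and 44.9, 46.6, 45.2 and 53.4 TPM in NOTCH2KO cells, against 58.9, 62.03, 63.5 and 88.2 TPM in WT cells. The NOTCH1KO libraries held both the highest and the lowest values, with DMSO above DAPT on either plate. No line difference passed the test for IRF1.

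**Figure D3:**
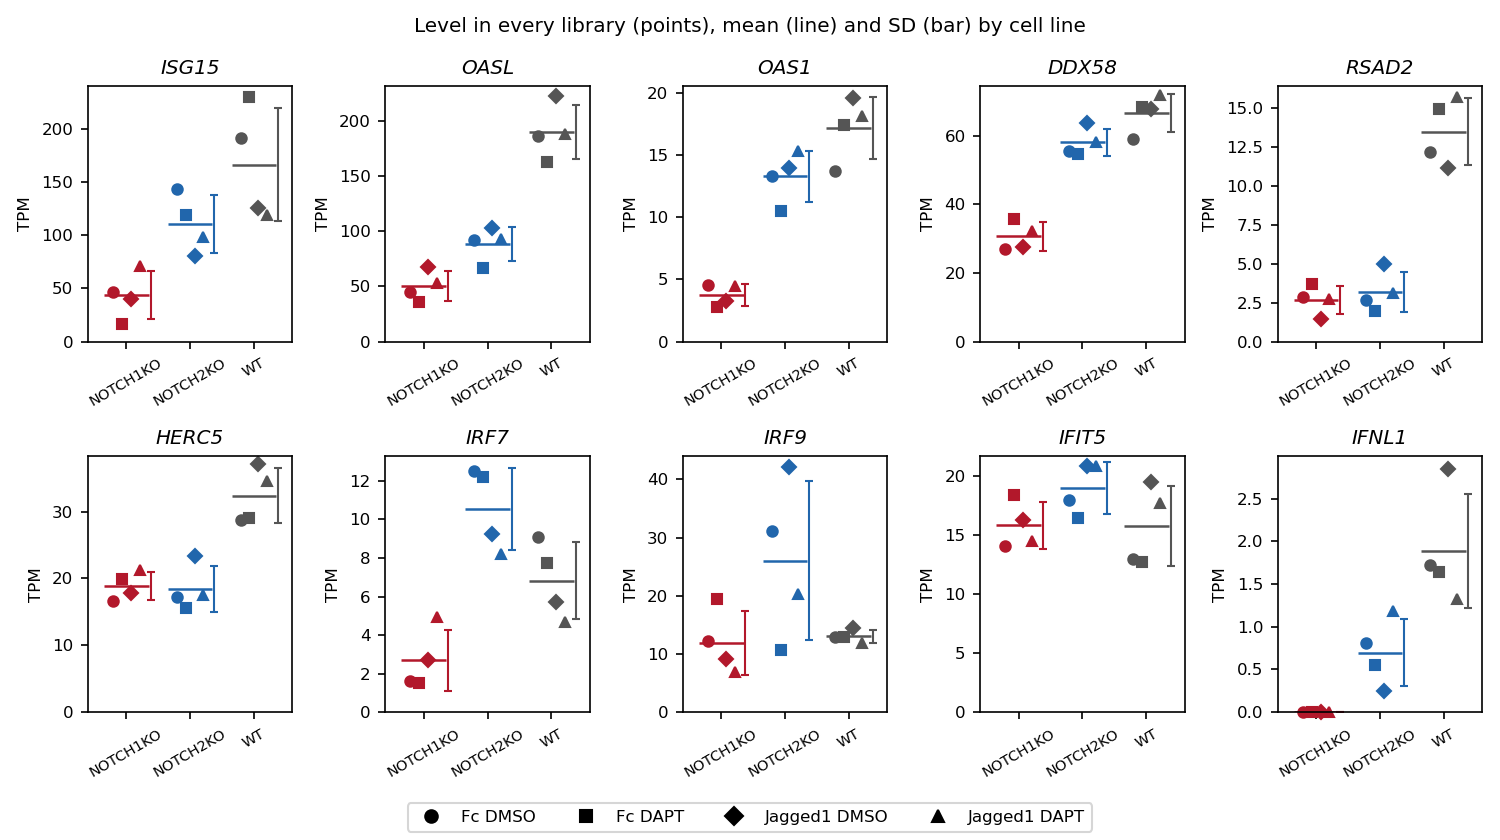
Level in TPM (y axis) of 9 members and of IFNL1 in every library, by line (NOTCH1KO, NOTCH2KO, WT from left to right) and culture (marker shape), with the mean of the 4 libraries as a line and their SD as a bar. RSAD2 and HERC5 are below WT in both knockout lines, OAS1 and DDX58 are lower in NOTCH1KO than in the other lines, IRF7 and IRF9 are highest on average in NOTCH2KO, and IFNL1 is at 0 in all 4 NOTCH1KO libraries.

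Cytosolic RNA sensors start the interferon response, and 4 of the 5 were lower in NOTCH1KO cells. DDX58, which encodes RIG-I, a sensor of RNA with a 5′ triphosphate, had 27.1, 35.8, 27.4 and 32.3 TPM in NOTCH1KO cells and 55.6, 54.7, 63.7 and 58.1 TPM in NOTCH2KO cells, against 58.9, 68.2, 67.7 and 71.8 TPM in WT cells. It fell to 46.02% of the WT mean in NOTCH1KO cells (-1.10 ± 0.0991, adjusted p = 2.7e-04), with no overlap, while the NOTCH2KO values overlapped those of WT (-0.20 ± 0.0991, adjusted p = 0.21). DHX58, which encodes the related regulator LGP2, had 2.84, 1.71, 2.85 and 3.85 TPM in NOTCH1KO cells and 6.78, 8.31, 5.95 and 6.75 TPM in NOTCH2KO cells, against 10.6, 11.4, 6.38 and 9.33 TPM in WT cells. It showed the largest fall among the sensors (-1.46 ± 0.21 in NOTCH1KO cells).

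IFIH1, which encodes MDA5, a sensor of long double-stranded RNA, had 18.5, 20.6, 20.4 and 20.5 TPM in NOTCH1KO cells and 26.6, 24.98, 34.1 and 28.9 TPM in NOTCH2KO cells, against 27.5, 30.98, 42.3 and 42.2 TPM in WT cells. It was lower in NOTCH1KO cells (-0.78 ± 0.11) and the WT values were themselves higher on Jagged1 than on Fc. EIF2AK2, the kinase PKR that halts translation on double-stranded RNA, was the most abundant sensor, at 58.6, 48.97, 53.2 and 53.8 TPM in NOTCH1KO cells and 44.7, 58.9, 84.997 and 46.6 TPM in NOTCH2KO cells, against 43.01, 52.6, 52.8 and 74.6 TPM in WT cells. Its line ranges overlapped and its difference in NOTCH1KO cells was -0.03 ± 0.21. EIF2AK2 overlaps GPATCH11 on the opposite strand, which averaged 51.65 TPM. DDX60 was lower in NOTCH1KO cells by a smaller amount (-0.41 ± 0.11), and lost its call without either Jagged1 library or the Fc DAPT library of the NOTCH1KO line or of WT, at -0.43 to -0.35.

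The OAS family makes 2′-5′ oligoadenylates that switch on the nuclease RNase L, and all 4 members were lower in NOTCH1KO cells. OAS1 had 4.53, 2.81, 3.24 and 4.45 TPM in NOTCH1KO cells and 13.3, 10.5, 13.98 and 15.4 TPM in NOTCH2KO cells, against 13.7, 17.4, 19.6 and 18.1 TPM in WT cells. The NOTCH1KO values reached 21.8% of the WT mean (-1.94 ± 0.15, adjusted p = 1.3e-04), and the NOTCH2KO values overlapped the WT values. OAS2 had 6.82, 2.34, 7.68 and 8.65 TPM in NOTCH1KO cells and 14.4, 13.6, 19.5 and 15.6 TPM in NOTCH2KO cells, against 18.9, 19.7, 29.7 and 28.2 TPM in WT cells, a log2 difference of -1.85 ± 0.22 in NOTCH1KO cells.

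OASL, which lacks the enzyme activity of its relatives and enhances RIG-I signaling, was the most abundant of the family. It had 45.2, 35.5, 68.05 and 53.3 TPM in NOTCH1KO cells and 92.1, 66.4, 103 and 92.9 TPM in NOTCH2KO cells, against 187, 163, 222 and 188 TPM in WT cells. No value of either knockout line reached the WT range, with log2 differences from WT of -1.92 ± 0.0937, adjusted p = 1.5e-05 in NOTCH1KO and -1.10 ± 0.0937, adjusted p = 2.5e-04 in NOTCH2KO cells. OAS3 differed less, by -0.56 ± 0.095 in NOTCH1KO and 0.09 ± 0.095 in NOTCH2KO cells, and only the first passed the test. OAS1, OAS2 and OAS3 are neighbors on chromosome 12 (chr12:113344582-113369990, chr12:113416200-113449528 and chr12:113376157-113411054, GRCh37), and their sequences are similar.

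ISG15 is a ubiquitin-like protein, UBE2L6 and HERC5 are its conjugating enzyme and ligase, and USP18 removes it and also restrains the interferon receptor. All 5 genes of this system were lower in NOTCH1KO cells. ISG15 (chr1:948803-949920, GRCh37) had 46.8, 16.3, 39.6 and 71.5 TPM in NOTCH1KO cells and 144, 119, 80.9 and 98.7 TPM in NOTCH2KO cells, against 192, 229.6, 125 and 119 TPM in WT cells. No NOTCH1KO value reached the WT range (-2.03 ± 0.40, adjusted p = 0.0088), and the NOTCH2KO values lay between the other lines and overlapped WT (-0.56 ± 0.40, adjusted p = 0.37). Its spread within each line was wide, and in WT and NOTCH2KO cells the Fc libraries were above the Jagged1 libraries. The NOTCH1KO call was lost, at the same difference, when the NOTCH2KO libraries were left out of the fit.

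USP18 had 9.995, 9.78, 7.795 and 10.7 TPM in NOTCH1KO cells and 18.1, 16.6, 16.3 and 18.8 TPM in NOTCH2KO cells, against 17.01, 16.4, 12.3 and 14.7 TPM in WT cells. It was lower in NOTCH1KO than in WT cells (-0.61 ± 0.0945) and not different by the test in NOTCH2KO cells (0.20 ± 0.0945, adjusted p = 0.18). HERC5 had 16.7, 19.9, 17.8 and 21.3 TPM in NOTCH1KO cells and 17.2, 15.6, 23.4 and 17.5 TPM in NOTCH2KO cells, against 28.8, 29.1, 37.1 and 34.6 TPM in WT cells. It was lower than in WT in both knockout lines, by -0.74 ± 0.12, adjusted p = 0.0039 in NOTCH1KO and -0.79 ± 0.12, adjusted p = 0.0035 in NOTCH2KO cells.

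UBE2L6 differed by -0.63 ± 0.0974 in NOTCH1KO and -0.04 ± 0.0974 in NOTCH2KO cells. HERC6, next to HERC5 on chromosome 4, differed by -0.56 ± 0.16 in NOTCH1KO cells. That call was lost without any 1 of the 4 WT libraries, without either Jagged1 library of the NOTCH1KO line and without the Fc DMSO library of NOTCH2KO, at -0.63 to -0.40.

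IFIT proteins bind viral RNA ends, and the 4 measured genes stand in a cluster on chromosome 10, between 91061712 and 91180758 (GRCh37). The upstream pair, IFIT2 and IFIT3, was lower in both knockout lines, whereas IFIT1 and IFIT5 passed the test in neither. IFIT3, the most abundant, had 51.98, 62.7, 64.6 and 65.3 TPM in NOTCH1KO cells and 91.1, 95.99, 105 and 96.2 TPM in NOTCH2KO cells, against 122, 148, 134 and 151 TPM in WT cells. The lines did not overlap in either comparison with WT (-1.17 ± 0.0753, adjusted p = 5.9e-05 for NOTCH1KO and -0.51 ± 0.0753, adjusted p = 0.003 for NOTCH2KO).

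IFIT2 had 23.2, 30.997, 26.9 and 32.2 TPM in NOTCH1KO cells and 44.9, 35.95, 55.95 and 41.4 TPM in NOTCH2KO cells, against 59.95, 63.9, 76.8 and 78.1 TPM in WT cells. Its differences were -1.27 ± 0.14 in NOTCH1KO and -0.64 ± 0.14 in NOTCH2KO cells, and the call in NOTCH2KO cells was lost without the Jagged1 DAPT library of NOTCH2KO (-0.55) or of WT (-0.60). IFIT1 had 31.5, 42.2, 37.4 and 39.3 TPM in NOTCH1KO cells and 41.9, 28.3, 46.7 and 47.9 TPM in NOTCH2KO cells, against 41.2, 52.7, 41.7 and 58.1 TPM in WT cells. In NOTCH1KO it was below WT in 4 of 4 pairs (-0.35 ± 0.17, adjusted p = 0.18), and its ranges overlapped. IFIT5 had a difference of 0.02 ± 0.14 in NOTCH1KO cells. In the tables' coordinates IFIT1, IFIT2 and IFIT3 lie on the strand opposite the lipase gene LIPA, which overlaps them and averaged 62.6 TPM.

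Of the membrane proteins that block virus entry or release, IFITM1, IFITM2 and IFITM3 were lower in NOTCH1KO cells and none of the 4 passed the test in NOTCH2KO cells against WT. IFITM3 had 100.4, 62.3, 94.6 and 106 TPM in NOTCH1KO cells and 149.6, 152, 133 and 147 TPM in NOTCH2KO cells, against 145, 161, 142 and 136 TPM in WT cells. The NOTCH1KO values were below all others (-0.71 ± 0.15, adjusted p = 0.013), and the NOTCH2KO mean was 99.52% of the WT mean. IFITM1 had 12.2, 6.06, 11.9 and 14.6 TPM in NOTCH1KO cells and 21.7, 18.4, 19.2 and 20.4 TPM in NOTCH2KO cells, against 22.4, 21.99, 20.3 and 18.98 TPM in WT cells, a difference of -0.90 ± 0.19 in NOTCH1KO cells.

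IFITM2 had 49.2, 40.8, 47.8 and 53.3 TPM in NOTCH1KO cells and 72.3, 66.8, 69.6 and 71.4 TPM in NOTCH2KO cells, against 70.6, 70.2, 63.01 and 68.3 TPM in WT cells, a difference of -0.51 ± 0.0832. The calls of IFITM1 and IFITM3 were lost, at the same differences, when NOTCH2KO was left out of the fit. The 3 IFITM genes are nearly identical neighbors on chromosome 11, the interval of IFITM2 covers that of IFITM1 in the tables (chr11:307631-315272 and chr11:313506-315272, GRCh37), and how reads shared among them were assigned is not given in the sources used here, so their separate values are uncertain. BST2, which encodes tetherin, differed by -0.16 ± 0.15 in NOTCH1KO cells and did not pass.

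All 7 intracellular antiviral genes of the next group were lower in NOTCH1KO cells. RSAD2 encodes viperin, an enzyme that makes a chain-terminating nucleotide, and CMPK2, which supplies its substrate, lies beside it head to head on chromosome 2. RSAD2 had 2.85, 3.69, 1.44 and 2.72 TPM in NOTCH1KO cells and 2.68, 1.996, 4.96 and 3.12 TPM in NOTCH2KO cells, against 12.2, 14.97, 11.2 and 15.7 TPM in WT cells. Both knockout lines lay far below WT, at 19.8% of the WT mean in NOTCH1KO (-2.01 ± 0.27, adjusted p = 0.0016) and 23.6% in NOTCH2KO cells (-1.83 ± 0.27, adjusted p = 0.0028), and their own ranges overlapped each other.

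CMPK2 had 1.59, 1.99, 1.71 and 2.29 TPM in NOTCH1KO cells and 2.88, 2.05, 3.23 and 2.76 TPM in NOTCH2KO cells, against 3.54, 4.24, 6.76 and 4.42 TPM in WT cells. It followed at lower levels, with differences of -0.96 ± 0.16 in NOTCH1KO and -0.60 ± 0.16 in NOTCH2KO cells. The call in NOTCH2KO cells was lost without any 1 WT library, without the Fc DAPT or either Jagged1 library of NOTCH2KO and without the Fc DMSO library of NOTCH1KO, at -0.69 to -0.46. The 2 genes overlap on opposite strands in the tables.

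TRIM22, a ubiquitin ligase that acts against several viruses, had 0.992, 1.36, 1.08 and 1.73 TPM in NOTCH1KO cells and 3.83, 5.901, 8.05 and 6.19 TPM in NOTCH2KO cells, against 7.43, 4.805, 7.86 and 5.97 TPM in WT cells. Against WT, the difference was large in NOTCH1KO cells and small in NOTCH2KO cells (-1.70 ± 0.20, adjusted p = 9.4e-04 in NOTCH1KO and -0.12 ± 0.20, adjusted p = 0.72 in NOTCH2KO cells), and the difference between the knockout lines was 1.58 ± 0.20, adjusted p = 8.0e-04. TRIM22 overlaps TRIM5 on the opposite strand, which averaged 14.07 TPM. SAMD9L, a growth-restraining antiviral factor, had 11.9, 12.003, 12.6 and 17.3 TPM in NOTCH1KO cells and 30.5, 27.8, 29.7 and 27.9 TPM in NOTCH2KO cells, against 22.5, 20.6, 27.9 and 23.7 TPM in WT cells. The difference from WT was negative in NOTCH1KO cells (-0.78 ± 0.12, adjusted p = 0.0035) and positive in NOTCH2KO cells (0.28 ± 0.12, adjusted p = 0.15).

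Its neighbor SAMD9 was the only member for which every NOTCH2KO library lay above every WT library (0.36 ± 0.13, adjusted p = 0.086). The share of all genes with that order was not counted. SAMD9 was lower in NOTCH1KO cells (-0.47 ± 0.13), a call lost without any 1 WT library or without any NOTCH1KO library other than that on Fc with DAPT, at -0.51 to -0.35. MX1, a dynamin-like GTPase that traps viral nucleocapsids, was the most abundant of the group and had 29.1, 35.2, 44.2 and 34.3 TPM in NOTCH1KO cells and 54.7, 38.6, 50.4 and 58.95 TPM in NOTCH2KO cells, against 47.7, 56.2, 53.6 and 60.8 TPM in WT cells. It was lower in NOTCH1KO cells (-0.61 ± 0.15), and lost the call without the Fc DMSO or the Jagged1 DAPT library of NOTCH1KO or without either DAPT library of WT, at -0.59 to -0.53. MX2 differed by -0.59 ± 0.13 in NOTCH1KO cells.

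The genes named for interferon inducibility and cell fate held both the largest fall and the most abundant member. IFI44L had 0.547, 1.06, 0.177 and 0.396 TPM in NOTCH1KO cells and 6.38, 3.33, 7.14 and 2.88 TPM in NOTCH2KO cells, against 11.1, 9.64, 6.22 and 7.49 TPM in WT cells. In NOTCH1KO cells it was at 6.35% of the WT mean (-2.64 ± 0.27, adjusted p = 5.0e-04), and in NOTCH2KO cells at 57.3% with overlapping values (-0.74 ± 0.27, adjusted p = 0.089). IFI44, which lies next to it on chromosome 1 (chr1:79085607-79111830 and chr1:79115481-79129763, GRCh37), had 289, 411, 234 and 372 TPM in NOTCH1KO cells and 383, 313, 301 and 262 TPM in NOTCH2KO cells, against 378, 422, 471 and 488 TPM in WT cells.

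This pair of neighbors differed by far in level. IFI44 was at 74.2% of the WT mean in NOTCH1KO and 71.6% in NOTCH2KO cells, and neither difference passed the test (adjusted p = 0.11 and 0.10). IFI27, a mitochondrial and nuclear membrane protein gene, had 4.901, 3.03, 5.85 and 3.77 TPM in NOTCH1KO cells and 9.702, 6.63, 5.58 and 5.76 TPM in NOTCH2KO cells, against 9.29, 12.2, 10.003 and 12.1 TPM in WT cells. The NOTCH1KO values were the lower (-1.16 ± 0.21).

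IFI6, which encodes a small protein that restrains apoptosis, had 11.4, 5.37, 11.6 and 11.4 TPM in NOTCH1KO cells and 26.2, 17.7, 28.6 and 25.1 TPM in NOTCH2KO cells, against 22.96, 19.04, 16.8 and 20.5 TPM in WT cells. It was lower in NOTCH1KO cells (-0.97 ± 0.17), as was IFI35 (-0.84 ± 0.10). EPSTI1 and XAF1, which promotes apoptosis, differed by -0.25 ± 0.40 and -0.11 ± 0.13 in NOTCH1KO cells and did not pass.

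PARP9 and DTX3L form a complex that ADP-ribosylates ubiquitin and enhances interferon signaling, and PARP14 belongs to the same family of ADP-ribosyltransferases. All 3 lie together on chromosome 3 and were lower in NOTCH1KO cells. PARP9 had 7.44, 13.2, 7.85 and 14.5 TPM in NOTCH1KO cells and 25.01, 21.4, 21.2 and 29.2 TPM in NOTCH2KO cells, against 17.2, 22.4, 25.6 and 20.1 TPM in WT cells, a difference of -0.96 ± 0.20 in NOTCH1KO cells. PARP14 had 20.4, 22.9996, 23.4 and 22.6 TPM in NOTCH1KO cells and 29.6, 33.4, 42.3 and 37.4 TPM in NOTCH2KO cells, against 33.1, 30.9, 43.3 and 41.2 TPM in WT cells, a difference of -0.69 ± 0.0947.

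DTX3L, at a mean level close to that of PARP14, had 21.9, 25.4, 24.4 and 22.7 TPM in NOTCH1KO cells and 34.6, 37.2, 45.6 and 42.5 TPM in NOTCH2KO cells, against 25.8, 28.8, 37.2 and 38.2 TPM in WT cells. Every NOTCH1KO value was below the WT range (-0.43 ± 0.10), a call lost without either Jagged1 library of NOTCH1KO or of WT, at -0.40 to -0.36. In NOTCH2KO cells DTX3L was higher in 4 of 4 pairs and did not pass (0.30 ± 0.10, adjusted p = 0.081). PARP9 and DTX3L overlap head to head on opposite strands.

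Neighboring genes were set beside the members as a check on the chromosome region each lies in. For each member, the median log2 difference of all tested genes within 5 Mb that are not members was taken (26 to 197 genes). In NOTCH1KO against WT, these neighbor medians ran from -0.38 around the IFITM genes to 0.34 around EIF2AK2, with a median of -0.06. The member was below its neighbors in 42 of 43 cases, by a median of 0.68 log2 units. The exception was IRF9 (-0.21, against -0.35 for its neighbors). In NOTCH2KO against WT, 27 of 43 members lay below their neighbors. The neighbors of ISG15 (-0.28), TRIM22 (-0.28), USP18 (-0.30) and IRF7 (-0.37) were themselves low in NOTCH1KO cells. IFITM2 was at -0.51 and IFITM3 at -0.71, against -0.38 for their neighbors. MX1 was at -0.61 and MX2 at -0.59, against -0.27 for the neighbors of each. The part of the neighbors' shifts in the members' differences was not tested.

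**Figure D4:**
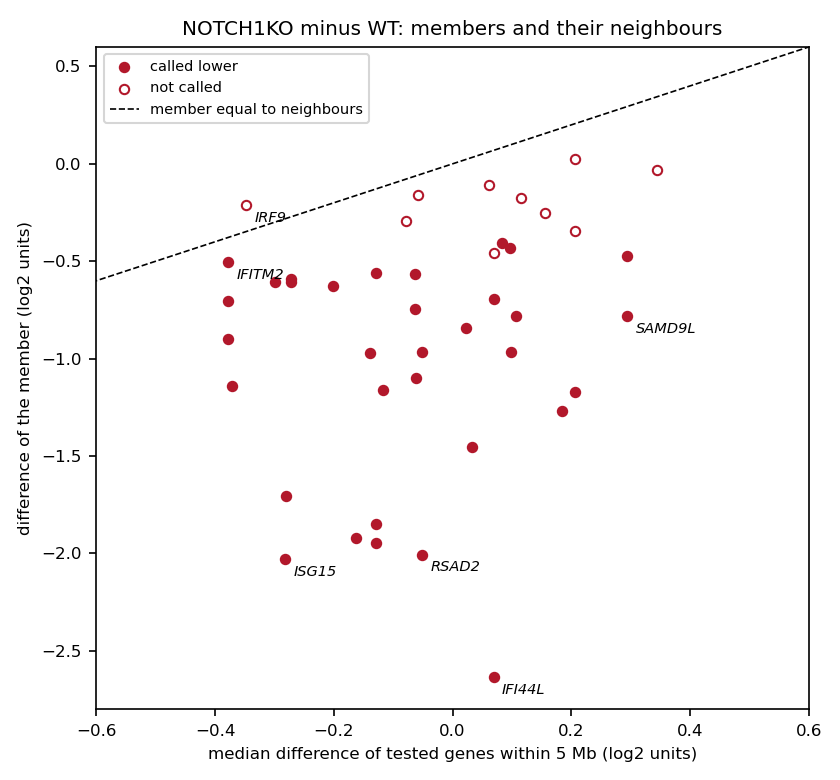
Difference of each member between NOTCH1KO and WT (y axis, log2 units) against the median difference of the tested genes within 5 Mb of it (x axis, log2 units). Of the 43 points, 42 lie below the dashed line of equal values, and neighbor medians stay between -0.38 and 0.34 while members reach -2.64.

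The genes upstream of the members were examined from lists of ligands, of receptors with the JAK-STAT pathway, and of nucleic acid sensing. Of 16 listed interferon genes, 13 were found by name in the tables. Of these, IFNL1, a type III interferon, was the only one with a value above 0. IFNL1 had 0, 0, 0 and 0 TPM in NOTCH1KO cells and 0.815, 0.548, 0.246 and 1.18 TPM in NOTCH2KO cells, against 1.72, 1.64, 2.85 and 1.32 TPM in WT cells. It was thus listed at 0 in every NOTCH1KO library, and every NOTCH2KO value was below every WT value. Its mean over 12 libraries was under 1 TPM, so it was not tested. In the WT library with its highest value, Jagged1 with DMSO, 1 read per kb was worth 0.104 TPM. The type I genes IFNA1 and IFNB1 and the type II gene IFNG were listed at 0 throughout.

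IFNLR1, the specific chain of the receptor for type III interferons, averaged 1.14 ± 0.268 TPM in NOTCH1KO and 2.42 ± 0.565 TPM in WT cells (log2 difference -0.67 ± 0.12, adjusted p = 0.0067). Of 17 tested genes of the receptors and the JAK-STAT pathway, 5 were lower and 2 higher in NOTCH1KO cells (12.8% and 10.7% of all genes), and 1 was lower and 0 higher in NOTCH2KO cells (7.35% and 12.0% of all genes). The feedback inhibitor SOCS3 (-0.86 ± 0.12), the kinase JAK2 (-0.64 ± 0.11) and IL10RB, the shared receptor chain (-0.48 ± 0.12), were lower in NOTCH1KO cells. Of the receptor for type I interferons, the chain IFNAR1 was lower (-0.38 ± 0.10, adjusted p = 0.030) and the chain IFNAR2 did not pass (-0.33 ± 0.16, adjusted p = 0.17). The higher ones were PIAS1 (0.45 ± 0.0904) and the phosphatase gene PTPN1 (0.25 ± 0.0728), both of which restrain JAK-STAT signaling.

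Of 21 tested genes listed for nucleic acid sensing upstream of interferon, 6 were lower and 0 higher in NOTCH1KO cells (12.8% and 10.7% of all genes). The list holds adaptors and nucleases as well as sensors. In NOTCH2KO cells 0 were lower and 3 higher, near the shares of all genes (7.35% and 12.0%). The DNA sensor AIM2 (-1.47 ± 0.17), the RNA receptor TLR3 (-0.74 ± 0.13), the nuclease TREX1 (-0.66 ± 0.20) and TMEM173, which encodes STING (-0.64 ± 0.18), were lower in NOTCH1KO cells. IRF5 was higher in NOTCH2KO cells (1.27 ± 0.15), as was MAVS, the adaptor of RIG-I (0.60 ± 0.12).

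Further interferon-stimulated genes outside the 43 moved less uniformly. Of 46 tested, 22 were lower and 2 higher in NOTCH1KO cells (12.8% and 10.7% of all genes), with a median log2 difference of -0.37. In NOTCH2KO cells 6 were lower and 5 higher (7.35% and 12.0% of all genes), with a median of -0.08. IDO1, which degrades tryptophan, averaged 0.195 ± 0.226 TPM in NOTCH1KO and 3.71 ± 2.41 TPM in WT cells, and the exonuclease ISG20 averaged 3.14 ± 1.39 TPM in NOTCH1KO and 11.7 ± 1.39 TPM in WT cells (SD, n = 4 each). ISG20 was also lower in NOTCH2KO cells (-1.47 ± 0.28, adjusted p = 0.009), together with the chemokine genes CXCL11 (-1.19 ± 0.15) and CXCL10 (-0.87 ± 0.22). GBP1 (0.49 ± 0.0724) and PARP12 (0.31 ± 0.0861) were higher in NOTCH1KO cells.

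Of 15 tested genes of MHC class I and antigen processing, some of which are also in the list before, 11 were lower and 0 higher in NOTCH1KO cells (12.8% and 10.7% of all genes), and 2 were lower in NOTCH2KO cells (7.35% of all genes). HLA-E averaged 74.9 ± 14.1 TPM in NOTCH1KO and 157 ± 17.4 TPM in WT cells (SD, n = 4 each, log2 difference -1.08 ± 0.15, adjusted p = 0.0021).

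The cultures addressed whether Notch activation or its blockade over 12 h moved the members, and no member passed the test in any of 4 comparisons. Each comparison averaged over all 3 lines, both knockout lines included, so WT cells gave only 1 pair of libraries. In DMSO, the Notch target HEY1 had 11.5 TPM on Fc and 56.6 TPM on Jagged1 in WT cells. It had 7.85 and 31.5 TPM in NOTCH1KO cells, and 11.0 and 18.3 TPM in NOTCH2KO cells. With Jagged1 against Fc in DMSO, 0 of 43 members were called (limma), where 0.0114% of all genes were. At an unadjusted p below 0.05 stood 7 members, and 1901 of all 17621 genes. With DAPT against DMSO on Jagged1, 0 were called, against 0.0284% of all genes (unadjusted, 3 members and 1939 of all genes). With DAPT against DMSO on Fc, 0 were called, against 0.0341% (unadjusted, 3 members and 1082 of all genes). With Jagged1 against Fc under DAPT, 0 were called, against 0.00568% (unadjusted, 5 members and 836 of all genes). With so few calls in all, the counts of called members carry little about the members. The standard error of a member's culture difference was 0.17 at the median and up to 0.46.

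The members' median log2 difference was 0.14 for Jagged1 against Fc in DMSO, 0.02 for DAPT against DMSO on Jagged1, 0.00 for DAPT against DMSO on Fc and 0.16 for Jagged1 against Fc under DAPT. The first of these was 0.049 without the Jagged1 DMSO library of NOTCH2KO, and the last was 0.092 without the Jagged1 DAPT library of NOTCH1KO. Both DAPT medians fell on either side of 0 as single libraries were left out. For Jagged1 against Fc under DAPT, 37 of 43 members were positive while the median over all genes was 0.02, and the medians within the lines were 0.13 in NOTCH1KO, 0.17 in NOTCH2KO and 0.11 in WT cells. OASL averaged 111 TPM on Jagged1 and 88.2 TPM on Fc under DAPT (log2 difference 0.42 ± 0.11, higher in 3 of 3 lines, adjusted p = 0.955). In DMSO it averaged 131 TPM on Jagged1 and 108 TPM on Fc (0.33 ± 0.11, higher in 3 of 3 lines, adjusted p = 0.38).

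For Jagged1 against Fc in DMSO, 13 of 43 members had a negative difference, among them all 4 membrane proteins that block virus entry or release (-0.20 to -0.085) and ISG15 and USP18, and none passed the test. USP18 averaged 12.1 TPM on Jagged1 and 15.0 TPM on Fc in DMSO (log2 difference -0.30 ± 0.11, lower in 3 of 3 lines, adjusted p = 0.41). For ISG15 the difference was -0.56 ± 0.46. STAT2 averaged 38.2 TPM with DAPT and 47.8 TPM with DMSO on Jagged1 (-0.32 ± 0.11, lower in 3 of 3 lines, adjusted p = 0.34).

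**Figure D5:**
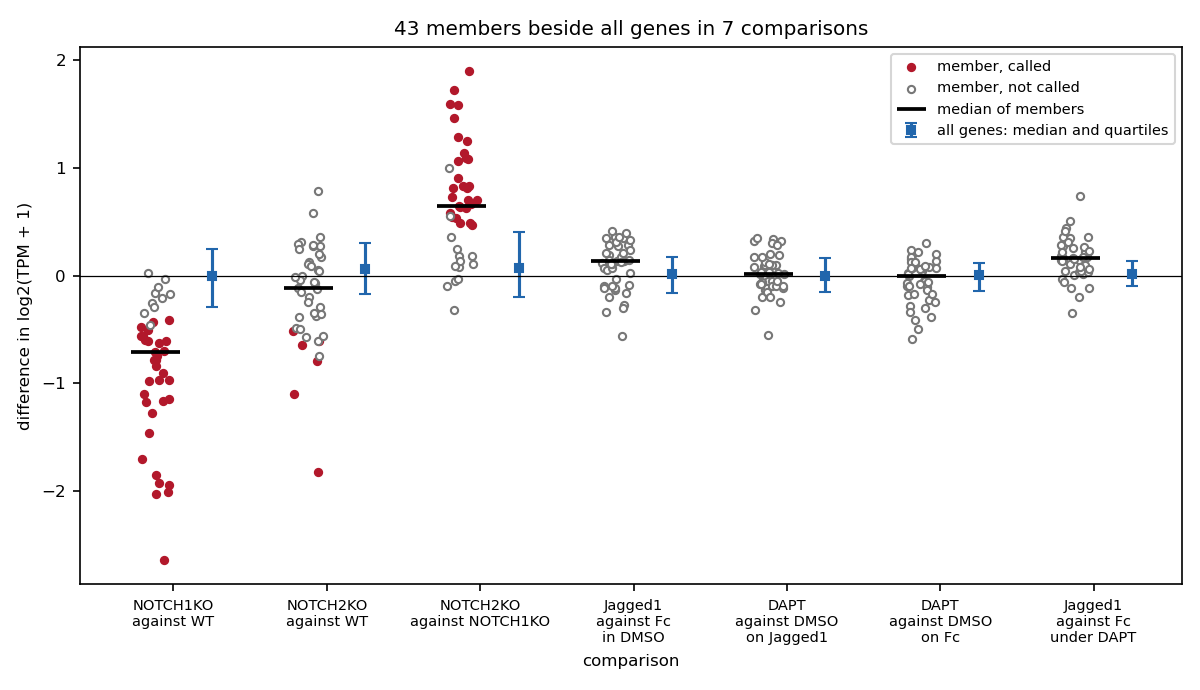
Log2 differences of the 43 members in the 3 line and 4 culture comparisons (points; filled points passed the test), with the median of the members as a bar and, to its right, the median and quartiles over all 17621 genes. The members' median is -0.71 for NOTCH1KO against WT and 0.65 for NOTCH2KO against NOTCH1KO, and lies between 0.00 and 0.16 in the culture comparisons, where no point is filled.

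Whether a line changed the response to the culture was tested by interaction terms with 4 residual degrees of freedom. No member passed for the DAPT or the Jagged1 response of NOTCH1KO or NOTCH2KO cells against that of WT cells (limma, lowest adjusted p = 0.38). Of all 17621 genes, 2 passed for the DAPT response and 6 for the Jagged1 response of NOTCH1KO cells. For NOTCH2KO cells, 0 and 7 of all genes passed. With so few calls in all, the absence of called members carries little about the members. At an unadjusted p below 0.05 there were 6 members for the Jagged1 response of NOTCH1KO cells, 2 for the DAPT response of NOTCH1KO cells, 3 for the DAPT response of NOTCH2KO cells and 0 for the Jagged1 response of NOTCH2KO cells. Of all genes, 11.74% were below that p in the first and 3.36% to 3.87% in the others.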

How the data were processed

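Poly-A RNA of 12 DAOY cultures was made into TruSeq Stranded mRNA libraries and read in single reads of 51 bases, and base calls were converted with bcl2fastq 2.17 from CASAVA (GRCh37), as the labels state. For the aligner, quantifier, annotation, strand setting and handling of multi-mapping reads, a description is not given in the sources used here. Per library, the authors deposited 1 gene table with TPM, FPKM and a coverage signal, without read counts. Deposited TPM values were summed per gene identifier (63677), and depth was read from coverage divided by FPKM.

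Log2(TPM + 1) was fitted with limma 3.58.1 in R 4.3.3 with line and culture as additive terms (6 residual degrees of freedom) for 17621 genes with a mean of at least 1 TPM, and Benjamini-Hochberg adjusted p-values below 0.05 were called. Differences on this scale understate changes near 1 TPM. The code was tested on simulated data. The members and lists were chosen with earlier results of these data known. Values in every library are given for the 4 transcription factors and, per role group, the most abundant member and up to 3 called members with the largest difference. Of other lists, up to 4 called genes with the largest difference were eligible. IFNAR1, IFNAR2, PIAS1, PTPN1, IFNL1, IFIT1, CMPK2 and SAMD9 were singled out after their values were seen. The culture differences of OASL, USP18, ISG15 and STAT2 fell outside these rules and were picked with the values known. Alternatives were a pseudocount of 0.1, no filter, a mean of at least 5 TPM, FPKM, coverage, median centering, library weights, single terms, each library left out and the third line left out.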

Additional observations from a re-analysis of the deposited data

How the results depend on the processing

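No called difference of a member between lines, and no median of a line comparison, changed sign in the 21 alternatives, whereas differences near 0 that were not called did. The DAPT medians, close to 0, changed sign too. On Jagged1 the median was -0.037 to 0.098 with 1 library left out, and on Fc it was -0.047 to 0.069 with 1 library left out, -0.049 at a mean of at least 5 TPM and -0.0545 with library weights. Of the calls against WT, 24 of 33 in NOTCH1KO cells and 4 of 6 in NOTCH2KO cells were kept in every alternative in which the gene was tested. The number called lower in NOTCH1KO cells stayed within 1.5 times of 33. With NOTCH2KO left out of the fit, the NOTCH1KO calls of ISG15, IFITM1, IFITM3, IRF7, DDX60, HERC6, DTX3L and SAMD9 were lost. In NOTCH2KO cells, 11 members were lower and 2 higher with coverage in place of TPM, 10 were lower and 2 higher with library weights, 2 were higher with NOTCH1KO left out, and 0 to 1 were higher with 1 library left out. The median for NOTCH1KO against WT was -0.74 with FPKM, -0.65 after median centering, -0.73 with library weights and -0.75 to -0.66 with 1 library left out. The median for NOTCH2KO against NOTCH1KO was 0.50 after centering. For Jagged1 against Fc the median in DMSO was 0.049 to 0.19 with 1 library left out, and under DAPT it was 0.13 after centering, 0.19 with library weights and 0.092 to 0.21 with 1 library left out. The higher call of BST2 in NOTCH2KO against NOTCH1KO was lost in 16 of 21 alternatives and that of MX1 in 8. The labels carry no replicate numbers, and the pairing of the lines by culture is part of the model through its culture term. The cause of these shifts was not tested. Depth leaves levels under about 1 TPM on few reads, and with 1 library per combination and 1 line per genotype no value speaks to other lines of the same genotype.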

Other observations

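The type I interferon genes are clustered on the short arm of chromosome 9. The tables list 20 interferon genes and pseudogenes there, from 21077104 to 21482312 (GRCh37), and each was at 0 TPM in all 12 libraries. An exact 0 in these tables can also be a value that was not estimated. IFNL1, on chromosome 19, was at 0 in every NOTCH1KO library and above 0 in all 4 NOTCH2KO and all 4 WT libraries, and it was singled out after its values were seen.

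RSAD2, CMPK2, HERC5, OASL, IFIT2 and IFIT3 were the members lower in NOTCH2KO cells. Their differences from WT in NOTCH1KO and NOTCH2KO cells stood side by side at -2.01 and -1.83 for RSAD2, -0.96 and -0.60 for CMPK2, -0.74 and -0.79 for HERC5, -1.92 and -1.10 for OASL, -1.27 and -0.64 for IFIT2 and -1.17 and -0.51 for IFIT3. Both comparisons use the same WT libraries. IFI44L, OAS1, TRIM22 and IRF7 showed another pattern, with -2.64 and -0.74, -1.94 and -0.35, -1.70 and -0.12, and -1.14 and 0.58, where only the NOTCH1KO values passed the test. The genes of this second set were picked by these values, and the grouping was not tested.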
